A study of Mus musculus with 12 samples.

Results

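The 29 genes described here are the mouse Hox genes outside Hoxa and Hoxd groups 9 to 13: the anterior members of the HoxA and HoxD clusters and the listed genes of the HoxB and HoxC clusters. They were chosen by name, as the probe sets annotated with exactly 1 of the 29 symbols, and the rule uses no measured value, although earlier results of these data were known when the set was proposed. Of the 29, 28 had a probe set of their own, among 19938 genes so represented on the array, 6 in HoxA on chromosome 6, 9 in HoxB on chromosome 11, 9 in HoxC on chromosome 15 and 4 in HoxD on chromosome 2. Hoxb8 was read only by a probe set shared with Hoxb7.

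The cultures were untreated mouse embryonic fibroblasts of male C57BL/6J embryos of stages E12.5 to E14.5, grown in DMEM with serum and collected at passage 5. There were 3 cultures in each of 4 groups: mTERT KO, in which the reverse transcriptase of telomerase is missing, mTERT WT, the wild types of that line, mTR KO, in which the RNA component is missing, and mTR WT, the wild types of the second line. The knockouts were first-generation (G1) animals, so the cells had lacked telomerase for 1 generation of mice, and the design text describes the wild types as littermates of the knockouts. The body region or regions that gave rise to each culture are not given in the sources used here. Each culture was measured on 1 Affymetrix Mouse Gene 1.0 ST array, and all values below are log2 signals per probe set as deposited. One log2 unit is a doubling of signal.

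Hox genes encode homeodomain transcription factors that give cells along the head-to-tail axis, and along the limbs, their positional identity. They lie in 4 clusters in which the order of the genes matches the order of their expression domains, with low-numbered groups active from the hindbrain backwards and high-numbered groups confined to the rear of the body and the ends of the limbs. Fibroblasts keep much of the Hox pattern of the site they came from, in culture as well, and Polycomb and trithorax complexes hold the clusters in their silent and active states.

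The sequences just upstream of 7 genes described below are shown. Hoxa5 and Hoxa6 had knockout means below the wild-type means in both lines. Hoxd3, Hoxd4 and Hoxd8 had knockout means above them, for Hoxd3 in the mTR line by only 0.0029, which turned below 0 under other settings. None of these differences passed the test. Hoxb4 and Hoxc4 are 2 genes of the clusters whose signal varied most between mTR cultures. Whether the upstream sequences bear on the signals was not tested. Each is the 250 bases before the RefSeq start in GRCm38.p6, written 5′ to 3′ along the gene, at chr6:52204588-52204837 for Hoxa5 and chr6:52208673-52208922 for Hoxa6, both on the minus strand, and on the plus strand at chr11:96318017-96318266 for Hoxb4, chr15:103034145-103034394 for Hoxc4, chr2:74711743-74711992 for Hoxd3, chr2:74721728-74721977 for Hoxd4 and chr2:74704365-74704614 for Hoxd8. Capitals mark matches, on either strand, to the CCAAT box (CCAAT), the TATA box (TATAAA), the Sp/KLF box (GGGCGG) and the CDX site (TTTATG).
Hoxa5: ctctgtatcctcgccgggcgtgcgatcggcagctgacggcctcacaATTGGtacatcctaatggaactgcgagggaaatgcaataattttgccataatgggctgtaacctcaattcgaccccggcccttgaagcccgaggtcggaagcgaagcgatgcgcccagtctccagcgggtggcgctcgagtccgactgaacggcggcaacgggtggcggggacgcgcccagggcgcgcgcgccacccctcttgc
Hoxa6: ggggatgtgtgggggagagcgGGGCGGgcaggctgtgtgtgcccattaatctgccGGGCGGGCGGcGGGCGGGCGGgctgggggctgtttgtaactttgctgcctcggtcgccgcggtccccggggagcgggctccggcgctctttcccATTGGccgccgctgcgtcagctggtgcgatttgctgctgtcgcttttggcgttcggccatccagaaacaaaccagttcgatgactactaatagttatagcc
Hoxb4: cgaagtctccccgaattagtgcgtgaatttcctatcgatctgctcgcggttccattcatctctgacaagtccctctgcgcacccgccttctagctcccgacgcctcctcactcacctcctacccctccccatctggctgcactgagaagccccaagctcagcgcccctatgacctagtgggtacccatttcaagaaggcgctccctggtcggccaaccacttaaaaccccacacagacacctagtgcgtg
Hoxc4: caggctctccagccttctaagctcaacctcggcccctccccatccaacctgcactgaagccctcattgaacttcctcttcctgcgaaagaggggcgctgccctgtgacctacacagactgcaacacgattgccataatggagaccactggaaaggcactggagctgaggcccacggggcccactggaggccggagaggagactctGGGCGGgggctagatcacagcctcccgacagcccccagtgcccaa
Hoxd3: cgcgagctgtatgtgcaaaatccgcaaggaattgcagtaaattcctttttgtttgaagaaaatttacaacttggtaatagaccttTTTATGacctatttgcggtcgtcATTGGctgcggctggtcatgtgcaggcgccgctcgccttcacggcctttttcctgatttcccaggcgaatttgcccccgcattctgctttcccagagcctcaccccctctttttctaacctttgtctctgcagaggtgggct
Hoxd4: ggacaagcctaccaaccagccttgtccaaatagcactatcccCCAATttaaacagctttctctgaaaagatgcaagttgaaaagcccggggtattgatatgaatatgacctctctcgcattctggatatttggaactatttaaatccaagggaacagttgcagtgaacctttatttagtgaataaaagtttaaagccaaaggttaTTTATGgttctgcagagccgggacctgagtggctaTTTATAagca
Hoxd8: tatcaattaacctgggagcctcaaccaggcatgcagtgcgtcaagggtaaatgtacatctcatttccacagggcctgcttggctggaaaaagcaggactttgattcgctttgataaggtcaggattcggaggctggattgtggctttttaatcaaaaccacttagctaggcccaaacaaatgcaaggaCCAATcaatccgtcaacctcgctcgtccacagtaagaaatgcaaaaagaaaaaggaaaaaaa
A CCAAT box stood in 5 of the 7 shown, Hoxa5, Hoxa6, Hoxd3, Hoxd4 and Hoxd8, and the Hoxb4 window held none of the motifs searched.

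The promoter table held 13 of the 29 genes. Of these 13, 9 had a CCAAT box in the 250 bases, against 33.9% of all 32841 promoters of the table. TTTATG was present in 4 of 13 against 10.8% of all, GGGCGG in 4 against 32.7%, TATAAA in 2 against 12.4%, the TALE site TGACAG in 2 against 15.9%, the E-box CACGTG in 1 against 6.0% and the homeodomain core TAATTA in 0 against 4.8%. None of these motifs contains another, but matches can share bases, as in the run of GGGCGG copies upstream of Hoxa6. The median GC content was 58.0% for the 13 and 52.4% for all promoters, and the median number of CpG dinucleotides was 12 and 6. These are counts of letters and not sites shown to be bound.

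Values were set against a background level, the 95th percentile of 1023 odorant receptor probe sets on the same array, which lay between 4.93 and 5.09. All 12 fibroblast markers listed (among them Col1a1, Pdgfra and Dcn) were above background in every culture, as the label requires, but so were 15 of 16 macrophage markers, 7 of 7 smooth muscle and 6 of 7 neural markers, and 2 of 5 skeletal muscle markers. The mean of the 16 macrophage markers ranged from 7.54 to 9.53 in mTR KO and 6.72 to 8.74 in mTR WT cultures, and from 7.45 to 9.15 in mTERT KO and 7.74 to 9.39 in mTERT WT cultures. Endothelial markers were above background in every culture for 0 of 5 genes, with Pecam1, Cdh5, Kdr and Tek above it in none, and epithelial markers for 1 of 6. In cultures of mixed cells, fewer cells of a type and less RNA per cell cannot be told apart. Tert read 4.99, 4.83 and 4.75 in mTERT KO cultures 1 to 3, against 5.72, 5.74 and 5.51 in mTERT WT cultures, which matches the labels. The probe set of Terc was at background in every culture, so it checks nothing.

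Of the 28 genes, 16 were above background in all 12 cultures, 7 in some and 5 in none. The 16 were Hoxa2, Hoxa5 and Hoxa7, then Hoxb2, Hoxb3, Hoxb4, Hoxb6, Hoxb7 and Hoxb9, then Hoxc4, Hoxc5, Hoxc6, Hoxc8 and Hoxc9, and Hoxd3 and Hoxd8. In HoxB the genes with a probe set of their own from Hoxb2 to Hoxb9, other than Hoxb5, were thus read in every culture. In HoxC those from Hoxc4 to Hoxc9 were. Both ends of HoxB, Hoxb1 and Hoxb13, were read in no culture. In HoxC this held for the rear end only, Hoxc11 to Hoxc13, and Hoxc10 was read in 5 of 12 cultures. The 5 genes at background throughout were Hoxb1, which specifies a hindbrain segment, Hoxb13, a gene of the tail and prostate, and the rear-most HoxC genes Hoxc11, Hoxc12 and Hoxc13, the last of which acts in hair and nails. Their signals ran from 4.51 to 4.92 for Hoxb1, 4.36 to 4.72 for Hoxb13, 4.05 to 4.49 for Hoxc11, 4.39 to 4.65 for Hoxc12 and 4.24 to 4.75 for Hoxc13, with no culture above its background. Of the 6 microRNA genes of the clusters on the array, 5 were above background in no culture, and Mir615, which lies within Hoxc5, read 5.08 to 5.45.

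**Figure D1:**
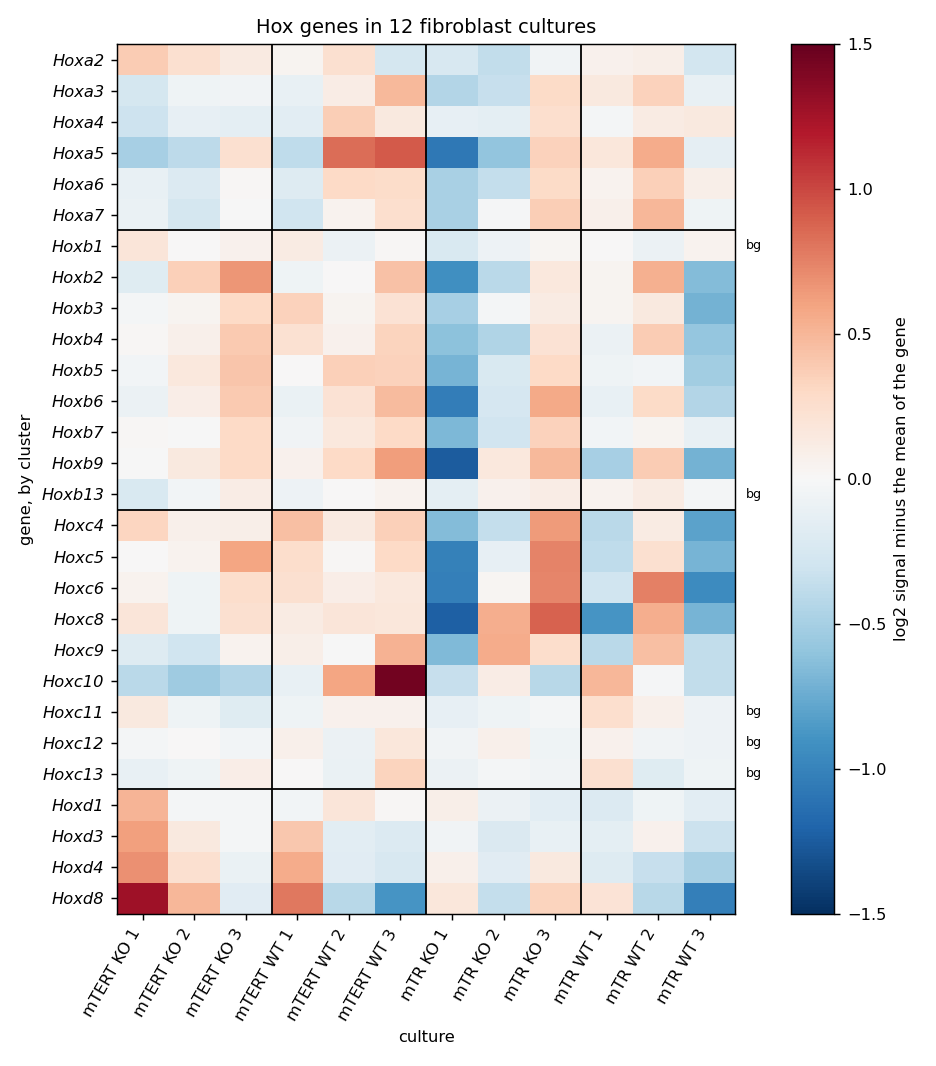
Heat map of the 28 genes (rows, by cluster) in the 12 cultures (columns, with KO left of WT in each line), as log2 signal minus the mean of the gene, from -1.5 (blue) to 1.5 (red). "bg" marks the 5 genes above background in no culture. Most HoxB and HoxC rows are blue in mTR KO culture 1 and mTR WT culture 3, and the Hoxd3, Hoxd4 and Hoxd8 rows are red in culture 1 of both mTERT groups.

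Loss of neither telomerase component gave a Hox difference that passed the test. Across all probe sets the limma fit, with Benjamini-Hochberg adjustment at 5%, called 0 of the 28 genes in mTERT KO against mTERT WT, where 1 probe set of 28853 (0.00347%) was called, that of Tert. It called 0 of the 28 in mTR KO against mTR WT, where 0 of 28853 (0%) were called. At an unadjusted p under 0.05 stood 2 of the 28 in the mTERT line, Hoxa4 and Hoxc10, against 1.92% of all probe sets, and 0 of the 28 in the mTR line, against 5.82% of all. In the paired fit of the 6 mTERT arrays, chosen after the data were seen, 10 of the 28 had an unadjusted p under 0.05 (Hoxa2, Hoxa3, Hoxa4, Hoxa5, Hoxb9, Hoxc9, Hoxc10, Hoxd3, Hoxd4 and Hoxd8), against 5.56% of all probe sets, and 0 passed after adjustment. Without pairing, the adjusted p was 1 for every one of the 28 in the mTERT line and 0.840 or more in the mTR line. Groups without overlap on the higher side were 0 of 28 in the mTERT line (2.88% of all probe sets). Differences below are knockout minus wild type ± the standard error of the fit, with n = 3 cultures per group. The fit gives each probe set 1 spread shared by the 4 groups, so an error in 1 line also holds the spread of the other. A p that misses the threshold does not show that the groups were alike.

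Signs were uneven by cluster. In mTERT KO against mTERT WT, 20 of 28 differences were below 0 (49.4% of all probe sets), with a median of -0.06 over the 28 and 0.00 over all probe sets. In mTR KO against mTR WT, 16 of 28 were below 0 (49.7% of all), with a median of -0.05. HoxA differences were below 0 for 5 of 6 genes in the mTERT line and 6 of 6 in the mTR line, and HoxD differences were above 0 for 4 of 4 in both. HoxB had 7 of 9 below 0 in each line, with medians of -0.05 and -0.08. HoxC had 8 of 9 below 0 in the mTERT line and 3 of 9 in the mTR line. These tallies include genes at background, Hoxd1 in 11 of 12 cultures and Hoxb1, Hoxb13 and Hoxc11 to Hoxc13 in all, and in the mTR line the value of Hoxd3, 0.0029, turned below 0 under 3 other settings. Among the genes above background in every culture, differences were below 0 in the mTERT and mTR lines for 2 and 3 of 3 HoxA genes, 5 and 4 of 6 HoxB, 4 and 0 of 5 HoxC, and 0 and 0 of 2 HoxD genes. Genes of a cluster lie side by side and share cultures, so these counts are a description. The 2 lines share no arrays.

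**Figure D2:**
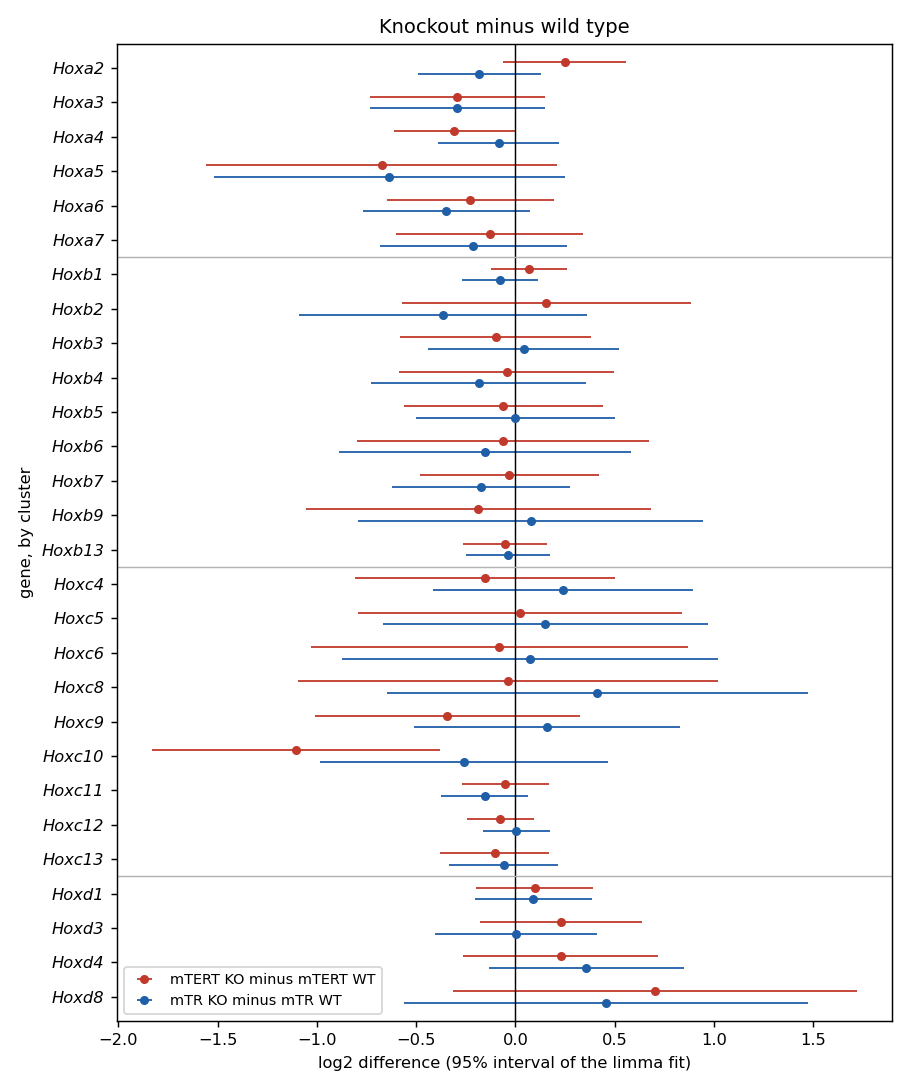
Log2 differences, knockout minus wild type, of the 28 genes, for mTERT (red, upper point of each pair) and mTR (blue, lower point), with 95% intervals of the limma fit. The intervals of Hoxc10 and Hoxa4 in the mTERT line leave out 0, all others cross it, and no difference passed after adjustment.

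In the HoxA cluster, Hoxa5 had the widest difference in both lines. Hoxa5 sets the border between neck and thorax and is needed for lung development. It read 6.19, 6.30 and 6.93 in mTERT KO cultures 1 to 3, against 7.52 and 7.61 in mTERT WT cultures 2 and 3 and 6.31 in mTERT WT culture 1. The groups overlapped through that low wild-type culture. The difference was -0.67 ± 0.40 (adjusted p = 1), -0.44 without mTERT WT culture 3 and -1.09 without mTERT WT culture 1. In the mTR line Hoxa5 read 5.62, 6.10 and 7.04 in KO cultures, against 6.87, 7.24 and 6.55 in WT cultures. Here mTR KO culture 3 was as high as the wild types and the other KO cultures lay below all of them. The difference was -0.63 ± 0.40 (adjusted p = 0.840), -0.32 without mTR KO culture 1 and -1.03 without mTR KO culture 3. The mean of both knockout effects was -0.65 ± 0.28, with an unadjusted p of 0.0414 and an adjusted p of 0.985 in the limma fit. That mean effect was below 0 for 20 of the 28 Hox genes (49.6% of all probe sets), and 2 of 28, Hoxa5 and Hoxc10, had an unadjusted p under 0.05 (4.09% of all).

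The neighbours of Hoxa5 had the same sign at smaller size. Hoxa6, a thoracic-level gene, read 5.28, 5.19 and 5.41 in mTERT KO, against 5.20, 5.69 and 5.67 in mTERT WT, a difference of -0.23 ± 0.19, and -0.14 without mTERT WT culture 2. It read 4.91, 5.04 and 5.68 in mTR KO, against 5.44, 5.75 and 5.48 in mTR WT, a difference of -0.35 ± 0.19 (adjusted p = 0.840), and -0.20 without mTR KO culture 1, whose signal was below its background. In both lines 1 culture kept the groups from separating: WT culture 1 in the mTERT line, which was low, and KO culture 3 in the mTR line, which was high. Hoxa3, which acts in pharyngeal arch, thymus and parathyroid development, was above background in 0 of 3 mTERT KO and 2 of 3 mTERT WT cultures. Its signals were 4.68, 4.89 and 4.90 in mTERT KO, against 4.84, 5.07 and 5.44 in mTERT WT, so its KO mean has only a bound, at least 1.08-fold lower than the WT mean. Without mTERT WT culture 3 no bound was left, since the WT mean of 4.96 was then below the KO background of 5.00, and the fitted difference was -0.13. In the mTR line Hoxa3 read 4.51, 4.60 and 5.24 in KO, against 5.09, 5.30 and 4.84 in WT. The fitted differences of Hoxa3 were -0.29 ± 0.20 in the mTERT line and -0.29 ± 0.20 in the mTR line.

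Hoxa4, a neck-level patterning gene, read 4.94, 5.13 and 5.10 in mTERT KO, against 5.08, 5.62 and 5.39 in mTERT WT. Its highest KO cultures overlapped the lowest WT culture. The difference was -0.31 ± 0.14, with an unadjusted p of 0.0476 and an adjusted p of 1 (limma), and -0.18 without mTERT WT culture 2. Its mTR difference was -0.08 ± 0.14, and -0.014 without mTR KO culture 2. Hoxa7, which patterns the upper thorax, was measured at 6.17, 6.00 and 6.26 in mTERT KO, against 5.97, 6.33 and 6.52 in mTERT WT, and its differences were -0.13 ± 0.21 and -0.21 ± 0.21. Hoxa2, which gives the second pharyngeal arch its identity, was the exception in HoxA. It read 5.80, 5.65 and 5.55 in mTERT KO, against 5.45, 5.65 and 5.16 in mTERT WT, and 5.18, 5.04 and 5.37 in mTR KO, against 5.49, 5.51 and 5.14 in mTR WT. The groups overlapped in both lines, with differences of 0.25 ± 0.14 and -0.18 ± 0.14, or 0.12 without mTERT WT culture 3 and -0.11 without mTR KO culture 2. The difference between these effects, mTERT minus mTR, was 0.43 ± 0.20 with an adjusted p of 1.

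The HoxD genes had the opposite sign. Hoxd8, a trunk-level gene, read 8.13, 7.35 and 6.69 in mTERT KO cultures 1 to 3, against 7.65, 6.44 and 5.97 in mTERT WT cultures 1 to 3. The groups overlapped, yet each KO culture stood above the WT culture of its own number, by 0.49, 0.91 and 0.71. The replicate numbers of the mTERT line behave as pairs over the whole array, and for this gene culture 1 was the highest and culture 3 the lowest of both groups. Culture number held 75.9% of the variance of Hoxd8 in the mTERT line, genotype 22.7% and the rest 1.4%, where the medians over all probe sets were 55.6% and 7.5% for number and genotype. Over the probe sets above background in every culture, as Hoxd8 is, those medians were 67.2% and 6.0%.

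Without pairing, the Hoxd8 difference was 0.70 ± 0.46 (adjusted p = 1). In a fit of the 6 mTERT arrays with the culture number as a block, chosen after the data were seen, it was 0.70 ± 0.09 with an unadjusted p of 9.15e-05 and an adjusted p of 0.147. That was the smallest adjusted p among the Hox results reported here under any setting, and it did not pass. In that fit 0 probe sets were called and 1604 had an unadjusted p under 0.05. With mTERT KO culture 1 left out of the unpaired fit the difference was 0.33, and with mTERT WT culture 1 left out it was 1.18. In the mTR line Hoxd8 read 7.02, 6.49 and 7.19 in KO, against 7.06, 6.44 and 5.84 in WT. The groups overlapped there, and the difference of 0.46 ± 0.46 (adjusted p = 0.880) was 0.15 without mTR WT culture 3, the lowest culture of all 12.

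Hoxd4, which patterns the hindbrain and upper neck, was the only 1 of the 28 genes whose mTR groups did not overlap. It read 5.27, 5.03 and 5.34 in mTR KO, against 5.01, 4.85 and 4.71 in mTR WT. Every mTR KO culture was above background, and 1 of 3 mTR WT cultures was. KO groups without overlap on the higher side were found for 5.33% of all probe sets in this comparison, so 1 of 28 is near the background. The difference was 0.36 ± 0.22 (limma adjusted p = 0.840), and the exact two-sided permutation p was 0.1, the smallest that 3 against 3 can give. In the mTERT line Hoxd4 read 5.88, 5.43 and 5.10 in KO, against 5.75, 5.02 and 4.95 in WT. The groups overlapped, each KO culture exceeded the WT culture of its number, and the difference of 0.23 ± 0.22 shrank to 0.02 without mTERT KO culture 1.

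Hoxd3, which helps form the uppermost neck vertebrae, followed Hoxd4 in the mTERT line, with 6.01, 5.54 and 5.37 in KO, against 5.81, 5.24 and 5.20 in WT. The difference was 0.23 ± 0.19, and 0.05 without mTERT KO culture 1. Its mTR signals were 5.34, 5.18 and 5.28 in KO, against 5.25, 5.46 and 5.08 in WT, and its difference of 0.00 ± 0.19 turned below 0 under other scalings of the arrays. Culture number held 84.2% of the mTERT variance for Hoxd3 and 86.8% for Hoxd4. Hoxd1, known for a role in sensory neurons, was above background in mTERT KO culture 1 alone, at 5.11, and between 4.40 and 4.79 elsewhere.

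In all, 4 of the 28 genes, Hoxb1, Hoxd3, Hoxd4 and Hoxd8, were higher in KO than in WT in all 3 mTERT pairs, against 3639 of the 28853 probe sets. Hoxb1 is a gene at background. Lower in KO in all 3 pairs were 7 of 28, Hoxa3, Hoxa4, Hoxa5, Hoxb9, Hoxc4, Hoxc9 and Hoxc10, against 3603 of the 28853 probe sets. The neighbouring Hoxa and Hoxd genes of groups 9 to 13, 9 genes, had differences above 0 for 8 of 9 in the mTERT line (median 0.46) and below 0 for 8 of 9 in the mTR line (median -0.55). The difference of knockout effects, mTERT minus mTR, was called for 0 of the 28 genes and 0 of all probe sets (0%). It was below 0 for 15 of 28 (49.1% of all), and 0 of 28 had an unadjusted p under 0.05 (3.34% of all).

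Hoxc10, a gene of the lumbar region and hind limb, was the only 1 of the 28 whose mTERT groups did not overlap. It read 4.71, 4.59 and 4.68 in mTERT KO cultures, all at background, against 5.01, 5.71 and 6.57 in mTERT WT cultures, of which 2 of 3 were above background. KO groups without overlap on the lower side were found for 3.09% of all probe sets, so 1 of 28 is again near the background. The KO mean was at least 1.70-fold lower than the WT mean, counting KO cultures at their background level. This bound includes mTERT WT culture 3, the highest of all cultures, and was not computed without it. The fitted difference was -1.10 ± 0.33, with an unadjusted p of 0.00648 and an adjusted p of 1 (limma), and -0.70 without mTERT WT culture 3. The exact two-sided permutation p was 0.1, the smallest possible.

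In the mTR line Hoxc10 read 4.77, 5.23 and 4.71 in KO, against 5.63, 5.10 and 4.75 in WT. These groups overlapped, with 1 of 3 KO and 2 of 3 WT cultures above background, and the difference was -0.26 ± 0.33, and -0.025 without mTR WT culture 1. Its effects in the mTERT and mTR lines differed by -0.85 ± 0.47, with an adjusted p of 1, and by -0.44 without mTERT WT culture 3. The highest Hoxc10 signals were those of mTERT WT cultures 2 and 3 and mTR WT culture 1. Of these only mTR WT culture 1 was also high for Tbx4, a hind-limb factor, which read 6.15 and 6.04 in mTR WT cultures 1 and 3 and 5.24 to 5.68 elsewhere. Tbx5, a fore-limb factor, ranged from 5.01 to 6.27 and Pitx1, which acts upstream of Tbx4, from 4.66 to 5.88. Their differences were 0.46 ± 0.29 and -0.25 ± 0.29 for Tbx5 in the mTERT and mTR lines, 0.02 ± 0.18 and -0.44 ± 0.18 for Tbx4, and 0.03 ± 0.31 and 0.19 ± 0.31 for Pitx1, none of them called.

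**Figure D3:**
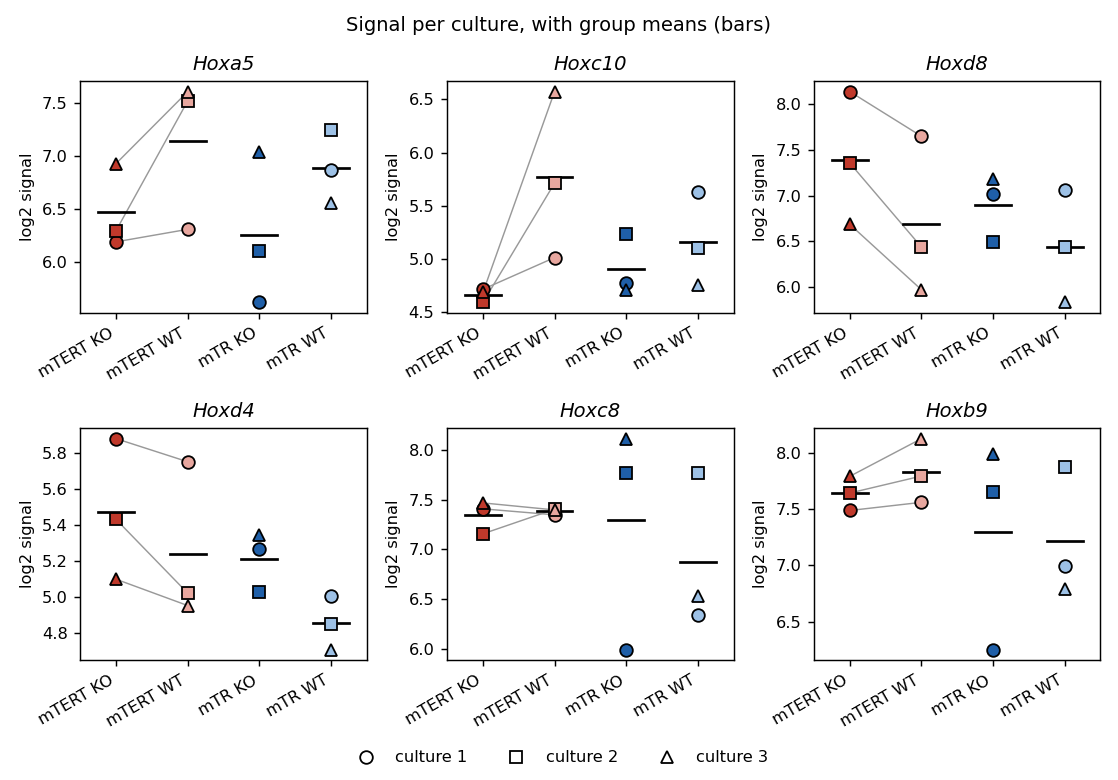
Log2 signal in each culture for Hoxa5, Hoxc10, Hoxd8, Hoxd4, Hoxc8 and Hoxb9, with KO left of WT in each line, group means as bars, cultures 1, 2 and 3 as circles, squares and triangles, and grey lines between mTERT cultures of 1 number. Hoxd8 is above its numbered WT partner in all 3 mTERT pairs, Hoxc10 is at background in all mTERT KO cultures, and Hoxc8 and Hoxb9 spread widely in the mTR groups alone.

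The HoxB and HoxC genes read in every culture had a larger SD within the mTR groups than difference between mTR KO and mTR WT means. Hoxc8, which patterns the thorax and the motor neurons of the arm, read 6.00, 7.77 and 8.11 in mTR KO cultures 1 to 3, against 6.34, 7.77 and 6.53 in mTR WT cultures. Cultures of both genotypes were high and low. In the mTERT line it read 7.41, 7.16 and 7.47 in KO, against 7.35, 7.40 and 7.40 in WT, so 6 cultures lay within a narrow band. The pooled SD within groups was 0.97 in the mTR line and 0.12 in the mTERT line, a ratio of 8.22. The difference of Hoxc8 was 0.41 ± 0.48 in the mTR line (adjusted p = 0.897), 1.06 without mTR KO culture 1 and 0.00 without mTR KO culture 3. In the mTERT line it was -0.04 ± 0.48, an error that includes the mTR spread. In the paired fit of the 6 mTERT arrays the error was 0.09.

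Hoxc6, which marks the fore-limb and thoracic level, read 5.94, 6.99 and 7.68 in mTR KO, against 6.66, 7.71 and 6.02 in mTR WT, and 7.01, 6.89 and 7.22 in mTERT KO, against 7.19, 7.06 and 7.11 in mTERT WT. Its SD within groups was 0.87 in the mTR line and 0.13 in the mTERT line, a ratio of 6.89. Hoxb9, which patterns the ribs, read 6.25, 7.65 and 7.99 in mTR KO, against 6.99, 7.88 and 6.79 in mTR WT. It stayed between 7.49 and 7.79 in mTERT KO and between 7.56 and 8.13 in mTERT WT, for SDs of 0.77 in the mTR line and 0.23 in the mTERT line. As for Hoxc8, the low cultures of both genes were mTR KO 1 and mTR WT 1 and 3.

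The same held across both clusters. Among genes above background in all cultures, the SD within groups was larger in the mTR line for 6 of 6 HoxB and 5 of 5 HoxC genes, by over 2 times for 5 and 5 of them, with median ratios of 2.40 and 3.77. Over the 15387 probe sets above background in every culture the median ratio was 0.946, and it exceeded 1 for 45.8% and 2 for 9.4%. The HoxA genes had a median ratio of 0.962, with 1 of 3 above 1. The HoxD genes, Hoxd3 and Hoxd8, went the other way, with 0 of 2 above 1 and a median of 0.535. Ratios over 2 were not confined to HoxB and HoxC. Without the background filter, Hoxa10 and Hoxa11 had 2.87 and 2.32 among the higher-numbered Hoxa and Hoxd genes outside the set. Of the TALE cofactors, Meis1, Pbx2 and Pbx4 had 3.22, 2.75 and 2.25. Of the limb factors, Tbx4 and Pitx1 had 4.60 and 2.19. Ratios below 1 in these lists were those of Hoxa9 (0.548), Hoxd9 (0.391), Pknox1 (0.701) and Tbx5 (0.845). The ratios were not tested, since neighbouring genes of a cluster share their cultures.

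The low culture was nearly always the same. Within the mTR line, mTR KO culture 1 was lowest for 5 of the 6 HoxB and 4 of the 5 HoxC genes, and mTR WT culture 3 was lowest for the remaining 1 of each, Hoxb3 and Hoxc4. The mean of the 6 HoxB genes was 5.55, 6.17 and 6.70 in mTR KO cultures 1 to 3, against 6.27, 6.68 and 5.85 in mTR WT cultures, and 6.34 to 6.77 in mTERT KO, against 6.45 to 6.78 in mTERT WT. That of the 5 HoxC genes was 5.68, 6.72 and 7.25 in mTR KO, against 6.12, 7.01 and 5.89 in mTR WT, and 6.53 to 6.84 in mTERT KO, against 6.67 to 6.89 in mTERT WT. Both clusters were thus lowest in mTR KO culture 1 and next lowest in mTR WT culture 3. The low value of mTR KO culture 1 was not particular to them. The mean of the 3 HoxA genes above background in every culture was also lowest of all cultures there, at 5.53. It was 5.80 and 6.35 in mTR KO cultures 2 and 3, against 6.23, 6.51 and 5.97 in mTR WT cultures. The HoxD mean was lowest in mTR WT culture 3, at 5.46. The macrophage marker mean was highest in mTR KO culture 1, at 9.53, with 8.84 and 7.54 in mTR KO cultures 2 and 3, against 6.72, 8.27 and 8.74 in mTR WT cultures 1 to 3. The skeletal and smooth muscle marker means were lowest of all cultures in mTR KO culture 1, at 5.52 and 9.49, and the fibroblast marker mean was the highest there, at 10.95. The neural marker mean was 6.50 in mTR KO culture 1. It was lowest in mTERT KO culture 1, at 6.11, and highest in mTR WT culture 2. Single neural markers went both ways in mTR KO culture 1. Nes was lowest of all cultures there, at 7.19, and Tubb3, at 7.72, was below every mTERT culture. Sox10, Sox2 and Map2, at 5.86, 6.57 and 7.33, were above every mTERT culture. Of the 7 neural markers, 5 had an SD ratio of mTR to mTERT line over 2. They were Sox10 4.80, Map2 3.14, Elavl3 3.04, Sox2 2.81 and Tubb3 2.10 (Elavl3 at background in every culture). Such ratios over 2 were found for 0 of 16 macrophage, 0 of 12 fibroblast, 0 of 7 smooth muscle and 1 of 5 skeletal muscle markers. They were also found for 2 of 6 epithelial and 1 of 5 endothelial markers. In mTR WT culture 1 the macrophage mean was the lowest of all cultures, at 6.72, and the HoxB and HoxC means were 6.27 and 6.12. The part of these cell types in the Hox spread was not tested.

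**Figure D4:**
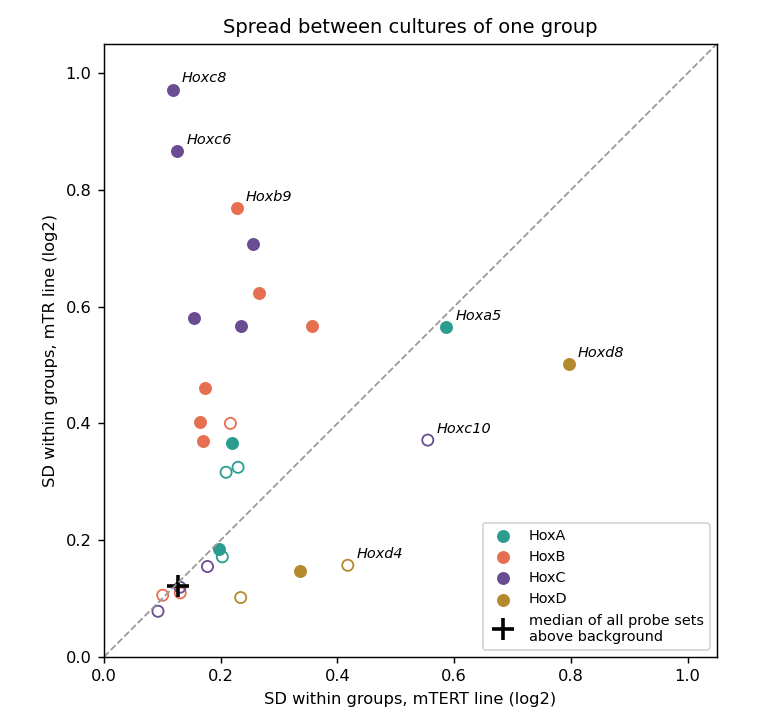
SD within groups (log2) of each gene in the mTR line (vertical axis) against the mTERT line (horizontal axis), coloured by cluster, filled for genes above background in every culture. Filled HoxB and HoxC genes lie above the dashed line of equal spread, up to 0.97 against 0.12 for Hoxc8, while Hoxd8 and Hoxc10 lie below it. The cross is the median of all probe sets above background.

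The other HoxB genes repeated this pattern at smaller size. Hoxb2, which acts in the hindbrain, read 5.15, 5.66 and 6.23 in mTR KO, against 6.10, 6.60 and 5.42 in mTR WT, with a difference of -0.36 ± 0.33, and -0.09 without mTR WT culture 2. Hoxb3 and Hoxb4, of the hindbrain and neck and known for roles in blood stem cells in the case of Hoxb4, had mTR differences of 0.04 ± 0.22 and -0.19 ± 0.25. Hoxb6, a trunk-level gene with signals of 5.21, 6.00 and 6.82 in mTR KO, against 6.13, 6.54 and 5.82 in mTR WT, had a difference of -0.15 ± 0.33. Hoxb5, which helps place the shoulder, had the least difference in the mTR line, 0.00 ± 0.23, from 4.82, 5.29 and 5.81 in KO, against 5.45, 5.47 and 4.99 in WT. Hoxb7, also of the trunk, read 5.20, 5.58 and 6.22 in mTR KO, against 5.84, 5.91 and 5.77 in mTR WT, and the probe set it shares with Hoxb8 read 5.28, 5.95 and 6.37 in mTR KO, against 5.68, 6.08 and 6.08 in mTR WT. In the mTERT line the HoxB differences ran from -0.19 ± 0.40 for Hoxb9 to 0.16 ± 0.33 for Hoxb2, none called. These errors include the mTR spread, and in the paired fit of the 6 mTERT arrays they were 0.08 and 0.10.

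Among the remaining HoxC genes, Hoxc9, which sets the identity of thoracic motor neurons, read 5.77, 5.66 and 6.01 in mTERT KO, against 6.04, 5.95 and 6.48 in mTERT WT. The groups overlapped by a single WT value below the highest KO value, and KO was lower in 3 of 3 pairs. The difference was -0.34 ± 0.30, or -0.34 ± 0.07 with the pairs as a block in the fit of the 6 mTERT arrays, where the adjusted p was 0.468. It was -0.18 in the unpaired fit without mTERT WT culture 3. Its mTR signals were 5.29, 6.51 and 6.23 in KO, against 5.55, 6.41 and 5.59 in WT, a difference of 0.16 ± 0.30. Hoxc4 and Hoxc5, neck-level genes, had mTR signals of 5.68, 5.96 and 6.97 in KO, against 5.92, 6.45 and 5.53 in WT, and of 5.48, 6.37 and 7.23 in KO, against 6.10, 6.73 and 5.79 in WT. Both had wide overlap, and their differences were 0.24 ± 0.30 and 0.15 ± 0.37.

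Between the lines, mTERT cultures had the higher means for most of these genes. In mTERT WT against mTR WT, 0 of 28 were called, where 5 of 28853 probe sets (0.0173%) were. The difference was above 0 for 24 of 28 and below 0 for 4 (47.8% of all probe sets below 0). This tally and that between the knockouts below include genes at background. They are Hoxb1, Hoxb13 and Hoxc11 to Hoxc13 in every culture, and Hoxd1 in all but mTERT KO culture 1. Of the 28, 3, Hoxb5, Hoxc4 and Hoxd1, did not overlap on the higher side, against 5.91% of all, and 0 on the lower side, against 7.14%. An unadjusted p under 0.05 was reached by 1 of 28, Hoxc4, against 6.78% of all. Hoxc4 was 0.68 ± 0.30 higher in the mTERT WT mean (adjusted p = 0.727) and Hoxb5 0.45 ± 0.23 (adjusted p = 0.768), while Hoxd1 was at background in both groups. In mTERT KO against mTR KO, 0 of 28 were called, where 1 of 28853 (0.00347%) was. There 22 of 28 differences were above 0 (47.8% of all probe sets below 0) and 2 of 28, Hoxa2 and Hoxd3, did not overlap on the higher side, against 3.93% of all, and 0 on the lower side, against 3.31%. Hoxa2 differed by 0.47 ± 0.14, with an unadjusted p of 0.00626 in limma, a level under 0.05 that 2.99% of all probe sets reached, and an adjusted p of 1. Whether the lines share litters is not stated in the labels, and line and litter cannot be told apart.

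The genes that work with or on Hox genes were listed by function, and 0 of 62 measured were called in either knockout comparison. Unadjusted p-values under 0.05 numbered 3 of 62 in the mTERT line and 4 of 62 in the mTR line, against 1.92% and 5.82% of all probe sets, so the mTR count is near the background. Of the TALE cofactors, homeodomain partners that bind DNA with Hox proteins, 0 of 8 were called, and Pknox1 had differences of 0.11 ± 0.08 and -0.10 ± 0.08 in the mTERT and mTR lines, Pbx4 0.10 ± 0.11 in the mTERT line and Meis2 0.17 ± 0.16 in the mTR line. Of the Polycomb repressors, 0 of 20 were called. Cbx7, a reader of the Polycomb mark, read 4.97, 4.97 and 4.85 in mTERT KO, against 5.13, 5.17 and 5.15 in mTERT WT, groups that did not overlap but lay near background, with a difference of -0.22 ± 0.06 and an unadjusted limma p of 0.0053. Jarid2, a cofactor of the Polycomb methyltransferase complex, had 0.20 ± 0.08 in the mTERT line, and in the mTR line the core subunits Suz12 and Ezh2 had 0.19 ± 0.07 and 0.24 ± 0.11.

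Of the trithorax activators, 0 of 12 were called, with Kdm6a, an eraser of the Polycomb mark, at 0.23 ± 0.12 and Ash2l at -0.08 ± 0.07 in the mTERT line, and the methyltransferases Kmt2d and Kmt2b at -0.25 ± 0.10 and -0.27 ± 0.14 in the mTR line. In the mTR line 4 of 12, Kmt2a, Kmt2d, Ash2l and Kdm6b, did not overlap on the lower side, against 6.07% of all probe sets. In the mTERT line 1 of 12, Kdm6a, did not overlap on the higher side, against 2.88% of all. Retinoic acid switches on anterior Hox genes in the embryo, and 0 of 15 genes of its pathway were called. Cyp26b1, which degrades retinoic acid, read 5.87, 5.73 and 5.88 in mTR KO, against 6.42, 6.41 and 6.31 in mTR WT, without overlap, for a difference of -0.55 ± 0.15 (unadjusted p = 0.00286, adjusted p = 0.839, limma). Aldh1a3, which makes retinoic acid, read 6.33, 6.47 and 6.81 in mTR KO, against 7.14, 7.94 and 7.38 in mTR WT, also without overlap, for -0.95 ± 0.28. Groups without overlap on the lower side made up 6.07% of all probe sets in that comparison. In the mTERT line the retinoid carrier Crabp2 had 0.25 ± 0.18 and the retinol uptake receptor Stra6, above background in 2 of 12 cultures, -0.13 ± 0.09. Of the 7 axial inducers, 0 were called, with Cdx1 at -0.13 ± 0.09 in the mTERT line. Otx2 in the mTERT line and Cdx2 and Cdx4 in the mTR line, the others named by the rule, were above background in 0 of 12 cultures and had no measured difference.

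The RefSeq table places 15 of the 28 genes over another annotated gene. Hoxa3 spans Hoxa4, Hoxa5 and Hoxa6, Hoxb3 spans Hoxb4, Hoxd3 spans Hoxd4, and the antisense genes Hoxaas3 and Hoxb5os cover Hoxa5 with Hoxa6 and Hoxb5 with Hoxb6. How the probes divide signal between such partners was not tested.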

How the data were processed

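RNA of 12 cultures was hybridised to 1 array each (Affymetrix Mouse Gene 1.0 ST). The table deposited by the authors holds log2 signals of 28853 probe sets on a common scale. PLIER, GCOS 1.4 and Affymetrix Expression Console are the tools in the submitters' processing notes, which state no role for them. The normalization between arrays and the array's genome build are not stated in those notes or labels. Because column quantiles lay within 0.08 of each other, the values were used as deposited. The platform annotation, which can be old, gives 1 symbol to 21789 probe sets, several to 1621 and none to 5443.

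Groups followed the labels. Group means were estimated for the 4 groups from all arrays and probe sets with limma 3.58.1 (lmFit and eBayes, R 4.3.3; 8 residual and 3.14 prior degrees of freedom), with Benjamini-Hochberg adjustment over all 28853 probe sets at 5%. The comparisons were KO against WT in each line, the difference and mean of these effects, and mTERT against mTR within each genotype. All listed Hox genes are named, and of each list of regulators the 2 genes with the smallest p per knockout comparison. The Hox genes and the lists were chosen with earlier results of these data known. A gene at background in a group was given a bound, with each array of that group at its background level or its own signal, whichever was higher. With 1 array per culture, the number of cultures limits the precision.

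The design text calls knockout and wild-type cultures of a set littermates, and whether equal numbers mark pairs was checked over the 14426 brighter probe sets. Deviations from group means correlated at 0.674, 0.733 and 0.790 for mTERT cultures of the same number, and at -0.156, 0.289 and -0.377 for mTR cultures. Across different numbers the correlations ran from -0.525 to -0.184 in the mTERT line and from -0.239 to 0.372 in the mTR line. The highest in the mTR line were 0.372 for KO 1 with WT 3 and 0.319 for KO 3 with WT 1. Numbers were therefore taken as pairs in the mTERT line only. Whether mTR cultures of different numbers are related was not tested. Whether the cultures of a group came from separate litters follows from that text alone. Alternatives were replicate blocks, quantile normalization, median centring, removal of dimmer or ambiguous probe sets, a trended and robust prior variance, weights per array, fits of only those arrays that a comparison uses, and omission of each culture. The fit was tested on simulated data with independent noise and the same spread in every group. That test held neither the mTERT pairs nor the wider mTR spread of HoxB and HoxC genes, so it does not cover them. Upstream sequences came from a RefSeq table of GRCm38.p6. Python 3.11.15 with pandas 2.3.3 and matplotlib 3.10.9 drew the figures.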

Additional observations from a re-analysis of the deposited data

How the results depend on the processing

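None of the Hox values reported was called under any of 23 settings (1513 values of 70 results), the smallest adjusted p being 0.147. The number of called probe sets in mTERT KO against mTERT WT was 1, and 0 with quantile normalization, with only the arrays compared, with same-numbered cultures within each line as fixed blocks, and in the paired fit of the mTERT arrays. With the mTERT pairs as a replicate block in the fit of all arrays it stayed 1, and 681 probe sets had an unadjusted p under 0.05, against 553 without the block. The block changed no Hox call. In the mTR line the numbers do not pair the samples, and the block made 0 calls there, as without it. In mTERT WT against mTR WT the count was 5, and 9 with array weights, 0 with quantile normalization and 1 with only the arrays compared. In mTERT KO against mTR KO it was 1, and 5 with only the arrays compared. Leaving out 1 culture gave 0 to 2 calls for the mTERT effect, 0 to 3 for the mTR effect, 0 to 1 for their mean, 0 to 11 between wild types and 0 to 8 between knockouts, and 0 each time for the difference of effects. Signs turned without any omission for 4 genes in mTR KO against mTR WT: Hoxb5 was 0.012 with quantile normalization and 0.080 with array weights, Hoxb13 0.0094 with array weights, Hoxc12 -0.0035 with quantile normalization and -0.008 with median centring, and Hoxd3 -0.015, -0.0094 and -0.0031 with quantile normalization, median centring and array weights. With 1 culture left out, 11 genes crossed 0 in the mTERT line, over these ranges: Hoxb2 -0.035 to 0.39, Hoxb4 -0.16 to 0.028, Hoxb5 -0.18 to 0.051, Hoxb6 -0.21 to 0.076, Hoxb7 -0.13 to 0.049, Hoxb13 -0.14 to 0.038, Hoxc5 -0.16 to 0.13, Hoxc8 -0.10 to 0.055, Hoxc11 -0.14 to 0.025, Hoxc13 -0.20 to 0.020 and Hoxd1 -0.081 to 0.19. In the mTR line 15 did: Hoxa7 -0.42 to 0.0084, Hoxb3 -0.23 to 0.22, Hoxb4 -0.44 to 0.054, Hoxb5 -0.25 to 0.24, Hoxb6 -0.56 to 0.24, Hoxb7 -0.45 to 0.062, Hoxb9 -0.27 to 0.60, Hoxb13 -0.089 to 0.039, Hoxc4 -0.15 to 0.50, Hoxc5 -0.29 to 0.59, Hoxc6 -0.33 to 0.54, Hoxc9 -0.092 to 0.52, Hoxc12 -0.042 to 0.048, Hoxc13 -0.15 to 0.061 and Hoxd3 -0.090 to 0.10. The cause was not tested. Scalings moved the median of all probe sets by at most 0.02. Blocks within each line cannot compare lines, so those fits were not made, and no Hox gene had several probe sets to average. Signals near background limit Hoxa3, Hoxa4, Hoxa6, Hoxb5, Hoxc10, Hoxd1 and Hoxd4, and 3 cultures per group cannot give an exact p below 0.1.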
